A study of Mus musculus with 19 samples.

Results

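The distal pharyngeal apparatus ('SHF') of the mouse embryo was compared between Chd7 cKO and control at E9.5, gene by gene, on 11005 genes taken from 32568 loci in the deposited 'SHF' table. A gene entered when its locus had the status OK, carried a single gene symbol and had a value above 0 in both genotypes, which left 12452 symbols. Where a symbol had several loci, the locus of highest mean was kept, and 11005 symbols had a mean of 1 FPKM or more. FPKM, is a level of sequenced fragments scaled for transcript length and sequencing depth. The table gives 1 pooled FPKM per genotype, so a gene has 2 values, with no spread between embryos, no depth per sample and no test. Each gene is therefore described by its FPKM in control and in cKO and by its ratio, cKO over control.

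The control embryos carried Mesp1-Cre, and the cKO embryos carried Mesp1-Cre with both copies of a floxed Chd7 allele, so Cre was present in both genotypes. There were 5 control and 6 cKO 'SHF' samples, each from a single E9.5 embryo, out of 19 samples in the series. The remaining 8 samples, 4 of each genotype, were hearts with the outflow tract ('HEART'), and all 8 came from embryos that also gave a 'SHF' sample. Mesp1-Cre acts in the descendants of Mesp1-expressing mesoderm, so neural crest, endoderm, ectoderm and neural cells of the dissection keep Chd7. The dissection took arches 2 to 6 with the dorsal pericardial wall, leaving out the first arch and the overlying neural tube. The first part of an embryo's name in the labels is shared by some embryos, within and between the genotypes, and what it stands for is not stated. Litter, sex and the exon removed by Cre are not given in the sources used here.

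CHD7 is an ATP-dependent chromatin remodeller of the chromodomain helicase family that acts largely at enhancers, and its loss of function in humans causes CHARGE syndrome. The second heart field is a population of cardiac progenitors in pharyngeal mesoderm that adds muscle to both ends of the heart tube. Its anterior part, marked by factors such as Tbx1, Fgf10 and Mef2c, supplies the outflow tract and right ventricle, and its posterior part, marked by Tbx5, Osr1 and retinoic acid synthesis, supplies the inflow region and the atrial septum.

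Chd7 itself, listed at chromosome 4 from 8690406 to 8869369 on mm10, had 28.2 FPKM in control and 18.9 FPKM in cKO, 1.49-fold lower. It stood 153rd from the lowest of the 11005 ratios, and the value covers the whole transcript and not the deleted exon alone. The other measured members of its family were close to even. Chd4 was listed at 152 FPKM in control and 150 FPKM in cKO, and Chd3, the member furthest from even after Chd7, was listed at 10.2 and 11.3 FPKM. In 'HEART', Chd7 read 230 CPM, 224 CPM, 231 CPM and 242 CPM in controls 1 to 4 and 35.8 CPM, 43.5 CPM, 42.7 CPM and 20.4 CPM in cKO 1 to 4, where CPM are counts scaled to library size by TMM. The genotypes did not overlap, and Chd7 fell by 2.71 on the log2 scale (SE 0.18, adjusted p = 9.0e-06, edgeR quasi-likelihood test).

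The tissue labels were checked against marker genes. All 6 second heart field and pharyngeal mesoderm markers were above 1 FPKM in both genotypes, from 4.30 to 25.7 FPKM in control and from 3.59 to 26.0 FPKM in cKO, as were all 5 markers of pharyngeal endoderm and all 6 of neural crest and arch mesenchyme. The first arch markers Lhx6 and Lhx8 lay under 0.8 FPKM, and the 3 macrophage markers lay under 0.3 FPKM. Nkx2-1, grouped with Lhx6 and Lhx8 but also in the pharyngeal endoderm list, lay under 0.8 FPKM too, and does not mark the first arch. The 3 neural tube markers with a locus of their own were above 1 FPKM in both genotypes, with sums of 9.97 FPKM in control and 11.9 FPKM in cKO, although the overlying neural tube was left out. The embryonic globins Hbb-y, Hbb-bh1 and Hba-x were all between 1054 and 1488 FPKM in both genotypes. Placental and yolk sac markers differed between the genotypes and are given beside the results below. In 'HEART', total counts ran from 8640839 to 15030099 per sample, and 817 of 12694 genes passed an adjusted p of 0.1, 6.44% of those tested.

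Most genes were nearly even between the genotypes. The median log2 ratio was -0.01, the middle 90% of genes lay between -0.27 and 0.20, and 79.6% of genes were within 1.1-fold. Of the 11005 genes, 62 were 2-fold or more lower in cKO (0.563%) and 13 were 2-fold or more higher (0.118%). With 1.5-fold as the limit, 151 were lower (1.37%) and 60 were higher (0.545%). The spread narrowed with level, from an SD of 0.42 on the log2 scale among genes of 1 to 2 FPKM to 0.10 among genes of 20 to 50 FPKM, and was 0.17 among genes of 50 FPKM or more. Among genes of 10 FPKM or more, 23 of 5915 were 1.5-fold or more lower (0.389%) and 10 were higher (0.169%). At the level limit, Sspn entered with a mean of 1.001 FPKM and B4galnt3 stayed out with 0.9998 FPKM.

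**Figure D1:**
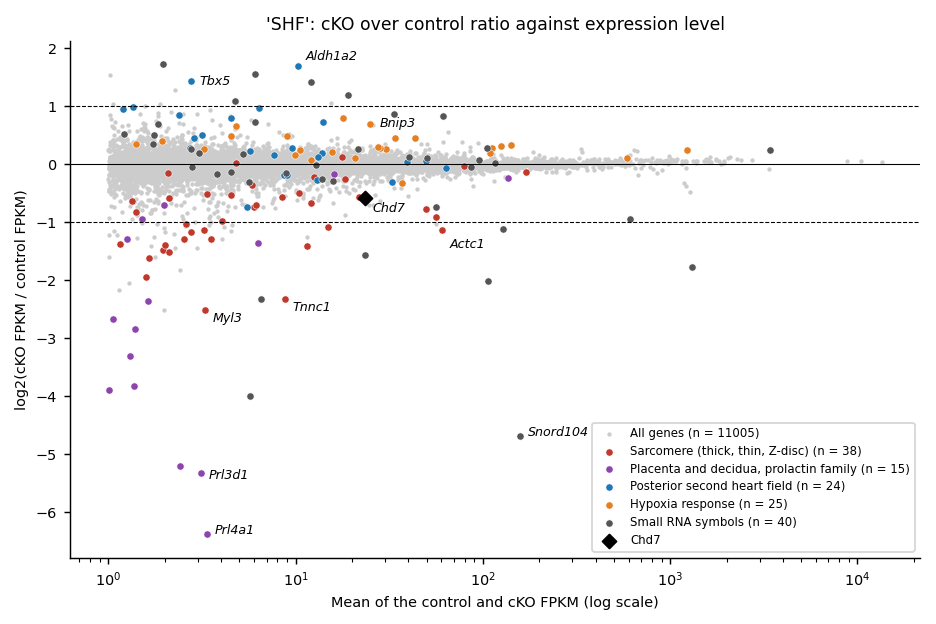
Ratio of cKO to control FPKM (log2, vertical axis) against the mean of both FPKM values (log scale, horizontal axis) for the 11005 'SHF' genes, 1 point per gene, with dashed lines at 2-fold. Of the sarcomere genes (red) 36 of 38 lie below the even line, as do the placental genes (purple), posterior second heart field (blue) and hypoxia genes (orange) mostly above it, and small RNA symbols (dark grey) on both sides.

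The sorting of the 62 genes that were 2-fold or more lower shows what the low end was made of. Each gene was counted once. Sarcomere and calcium handling genes made up 17, placental and prolactin genes 10, small RNA symbols 7, yolk sac and plasma protein genes 4, matrix genes 4, sex-linked genes 4, and second heart field or cardiac factors 2. A further 13 were in no list and 1 was in another list. Among the 13 genes that were 2-fold or more higher, 5 were small RNA symbols, 2 were second heart field factors, 2 were neural tube or Hox genes, 1 was Xist, and 3 were in no list.

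Genes of the contractile apparatus were lower in cKO. The sarcomere is built from thick filaments of myosin, thin filaments of actin with troponin and tropomyosin, and Z-discs that anchor the thin filaments. Across these lists 36 of 38 measured genes had a ratio below even and 24 were 1.5-fold or more lower. In the same lists 16 genes were 2-fold or more lower and none was 1.5-fold higher. Over all genes 45.8% were above even and 1.37% were 1.5-fold or more lower. The cardiomyocyte markers summed to 106 FPKM in control and 53.9 FPKM in cKO, and in bulk tissue fewer muscle cells and less RNA per cell cannot be told apart.

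Thick filament genes had the lowest ratios of the muscle lists, with 10 of 11 measured members 1.5-fold or more lower and a median log2 ratio of -1.30. Myl3, the ventricular essential light chain, had 5.61 FPKM in control and 0.980 FPKM in cKO, 5.73-fold lower. Myh7, the slow beta myosin heavy chain, had 16.7 and 6.29 FPKM, 2.65-fold lower, and Myh6, the alpha heavy chain, had 2.89 and 1.03 FPKM. Of the atrial light chains, Myl7 had 73.1 FPKM in control and 38.8 FPKM in cKO, 1.88-fold lower, and Myl4 had 20.2 and 9.52 FPKM. Mybpc3, a myosin binding protein, and Ttn, the titin spring that spans the sarcomere, were 2.26-fold and 2.20-fold lower. Myh10, a nonmuscle myosin that most cells use, was the member that did not go with the others, at 80.0 FPKM in control and 78.1 FPKM in cKO.

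Thin filament genes were lower in cKO in all 11 measured members. Tnnc1, the cardiac and slow troponin C, had 14.6 FPKM in control and 2.90 FPKM in cKO, 5.04-fold lower. Actc1, the cardiac actin, had 83.1 and 37.7 FPKM, 2.21-fold lower, and Acta2, the smooth muscle actin that early heart muscle also uses, had 63.0 and 36.9 FPKM. The widely expressed tropomyosin Tpm1 had 177 and 161 FPKM. In all, 4 of 11 measured members were 1.5-fold or more lower and none was higher, with a median log2 ratio of -0.57. Tnnt2, Tnni1 and Tmod1 lay just inside 1.5-fold, at ratios of -0.57, -0.56 and -0.58 on the log2 scale.

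In the Z-disc and chaperone list, 10 of 16 measured members were 1.5-fold or more lower, with a median log2 ratio of -0.68. Actn2, the alpha-actinin of the Z-disc, had 2.54 FPKM in control and 0.659 FPKM in cKO, 3.85-fold lower. Csrp3, a Z-disc LIM protein, was 2.58-fold lower, and Unc45b, the chaperone that folds myosin, was 2.06-fold lower. Smyd1, a methyltransferase of heart and skeletal muscle, had 14.9 and 9.40 FPKM, 1.59-fold lower. Fhl2, a LIM protein of heart muscle, was near even at 4.79 and 4.84 FPKM. Among calcium and excitation genes 3 of 17 were 1.5-fold or more lower, namely the calcium buffer Casq1, the calcium channel Cacna1d and the sodium-calcium exchanger Slc8a1, whereas the widely used calcium pump Atp2a2 had 115 and 114 FPKM.

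The promoters of these muscle genes are shown because 24 genes of the sarcomere lists were 1.5-fold or more lower together. RefSeq promoter sequence on GRCm38.p6 was available for 22 of them, and the 250 bases before each start were searched on both strands. The CArG box, which serum response factor binds in muscle genes, was found in 6 of the 22 (27.3%), and in 1.62% of the 27025 genes with a promoter. The MCAT motif CATTCC, read by TEAD factors, was found in 9 of the 22 (40.9%) and in 14.4% of all, and the MEF2 motif in 3 (13.6%) and 3.42% of all. The GATA motif AGATAA was found in 2 (9.09%) and 11.4% of all, and the TATA motif TATAAA, searched on the sense strand, in 1 (4.55%) and 8.94% of all. A gene with several promoters was counted if any held the motif, and a match is a description of letters and not of binding. The 22 come from lists of muscle genes, so a high share can be a property of the lists and not of these samples. Sarcomere genes that were not lower were not compared. The promoters below are given from 250 bases before the start, 5′ to 3′, with the CArG box in capitals. They belong to the thin filament gene Actc1 (chr2:114052876-114053125, minus strand), and to the light chain genes Myl7 (chr11:5898783-5899032, minus strand) and Myl3 (chr9:110763428-110763677, plus strand).
Actc1: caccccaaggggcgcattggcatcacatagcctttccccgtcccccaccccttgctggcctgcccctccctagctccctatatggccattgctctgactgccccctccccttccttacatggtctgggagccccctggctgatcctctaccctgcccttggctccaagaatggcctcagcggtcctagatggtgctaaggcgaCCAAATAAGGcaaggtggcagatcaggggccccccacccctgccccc
Myl7: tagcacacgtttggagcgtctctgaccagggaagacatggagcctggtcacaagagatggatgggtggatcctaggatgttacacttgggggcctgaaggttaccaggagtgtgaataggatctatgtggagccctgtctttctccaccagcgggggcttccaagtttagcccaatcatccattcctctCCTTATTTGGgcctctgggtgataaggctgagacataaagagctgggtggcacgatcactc
Myl3: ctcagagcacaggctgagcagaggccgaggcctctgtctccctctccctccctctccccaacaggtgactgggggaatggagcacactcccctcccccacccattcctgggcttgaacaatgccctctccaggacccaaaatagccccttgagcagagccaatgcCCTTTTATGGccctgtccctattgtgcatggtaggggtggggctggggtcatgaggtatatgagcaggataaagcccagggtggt
The box began 47 bases before the start in Actc1, 61 bases in Myl7 and 85 bases in Myl3.

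The 3 lowest ratios belonged to placental genes. The prolactin family is expanded in rodents and is made by trophoblast giant cells and other cells of the placenta. Prl4a1, the lowest gene of all, was listed at 6.67 FPKM in control and 0.0800 FPKM in cKO, 83.4-fold lower. Prl3d1, the placental lactogen of giant cells, had 6.09 and 0.151 FPKM, and Prl7a1 had 4.67 and 0.127 FPKM. All 3 lie in the prolactin cluster of chromosome 13. Of 24 prolactin family loci in the table, whatever their status, 16 were higher in control, 1 was higher in cKO and 7 were at 0 in both. Members of this family have near-identical copies, so the split of reads between them is uncertain.

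Steroid synthesis genes went with the prolactins. Cyp11a1, which makes the first step from cholesterol to steroids, had 2.36 FPKM in control and 0.239 FPKM in cKO, 9.88-fold lower. Star, which carries cholesterol into mitochondria, was 7.15-fold lower, and Hsd3b6, a later enzyme of the pathway, was 5.13-fold lower. The X-linked homeobox genes Rhox9 and Rhox6 had 1.88 and 1.84 FPKM in control and 0.126 and 0.289 FPKM in cKO. Of the 13 measured genes of the placenta and decidua list, 11 were 1.5-fold or more lower, with a median log2 ratio of -2.36 (-0.24 over the 3 members of 5 FPKM or more), and the abundant Peg10 and Tfpi, which many embryonic tissues also use, had 147 and 16.9 FPKM in control and 125 and 15.03 FPKM in cKO. Giant cell and decidual RNA is not part of the labelled tissue. The 5 placental markers summed to 11.8 FPKM in control and 1.07 FPKM in cKO, with Tpbpa at 0.0487 and 0.00652 FPKM, and how many of the 5 control embryos carried them is not known from a pooled value.

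Some yolk sac and plasma protein genes were lower in cKO. Afp, alpha-fetoprotein, had 3.37 FPKM in control and 0.586 FPKM in cKO, 5.74-fold lower, and Apoa1, an apolipoprotein, had 2.08 and 0.500 FPKM. Rbp4, which carries retinol in plasma, had 4.36 and 1.61 FPKM, 2.72-fold lower. In this list 5 of 11 measured members were 1.5-fold or more lower and none higher, with a median log2 ratio of -0.32. That median was 0.15 over the 2 members of 5 FPKM or more, and -1.15 over 17 members with no filter. Apoe, which many cells express, had 26.3 FPKM in control and 33.5 FPKM in cKO. The yolk sac markers summed to 12.4 FPKM in control and 6.21 FPKM in cKO, with Amn under 0.2 FPKM in both.

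Adult beta globins were lower by more than the embryonic globins. Hbb-b2, an adult beta globin, had 3.74 FPKM in control and 1.06 FPKM in cKO, 3.54-fold lower, and the locus that joins the adult globins Hbb-b1 and Hbb-bs had 37.4 and 12.5 FPKM. Among embryonic globins, Hbb-y had 1488 FPKM in control and 1060.3 FPKM in cKO, 1.40-fold lower. None of the 18 measured erythroid list genes was 1.5-fold lower or higher, and their median log2 ratio was -0.14. Joined loci are not among the 18. A joined locus of the adult alpha globins Hba-a1 and Hba-a2 had 60.6 FPKM in control and 40.1 FPKM in cKO, 1.51-fold lower. Another locus of the same pair had 11.7 and 9.19 FPKM, 1.28-fold lower. The adult globin genes have near-identical copies, so the division of reads among those copies is uncertain.

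**Figure D2:**
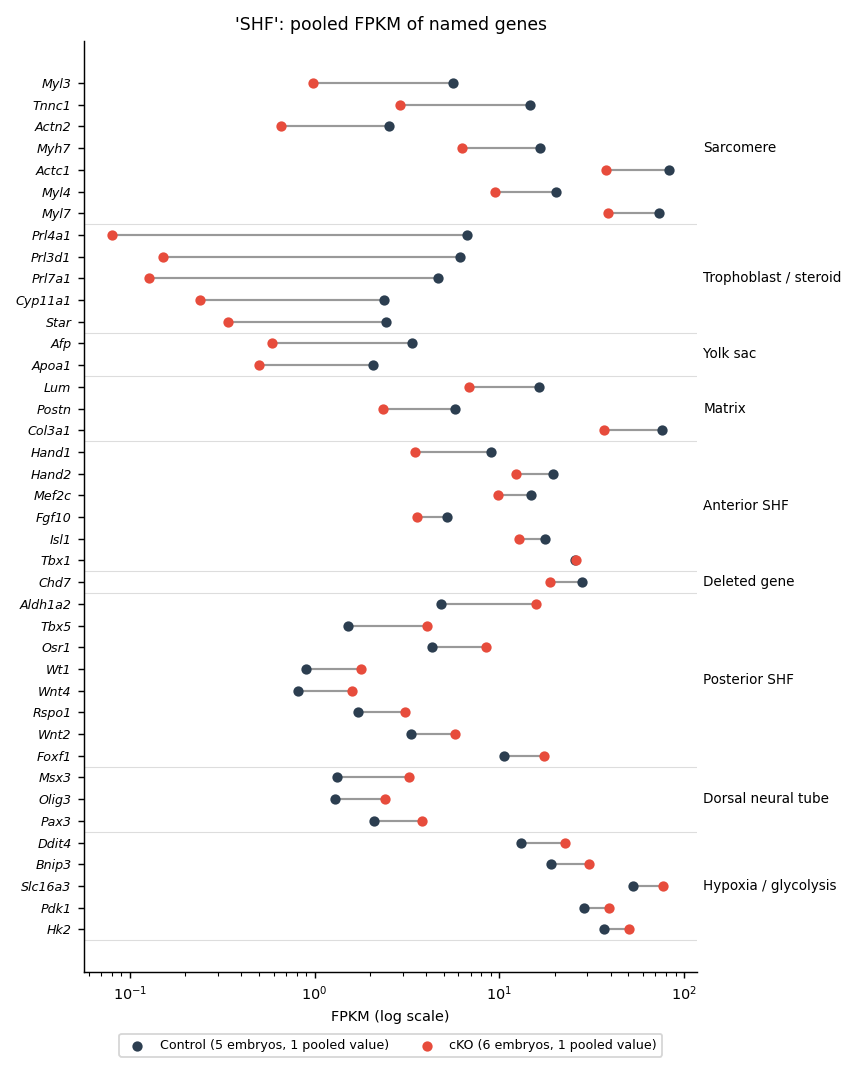
FPKM (log scale) of named genes in 'SHF', with the control value in dark blue and the cKO value in red, each 1 pooled value with no error, joined by a line and grouped by role. Sarcomere, trophoblast, yolk sac and matrix genes have the red point on the left, and posterior second heart field, dorsal neural tube and hypoxia genes have it on the right.

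Genes of the anterior second heart field were mostly lower. Of 21 measured members, 16 had a ratio below even, 5 were 1.5-fold or more lower and none was 1.5-fold higher. Their median log2 ratio was -0.33. Over all genes 45.8% were above even, 1.37% were 1.5-fold or more lower and 0.545% were higher. Ratios below even were also frequent in other lists, with 22 of 27 endothelial and 16 of 19 pharyngeal endoderm genes. Tdgf1, the Nodal co-receptor Cripto, had 1.87 FPKM in control and 0.413 FPKM in cKO, 4.52-fold lower. Hand1, a basic helix-loop-helix factor of heart and lateral mesoderm, had 9.03 and 3.51 FPKM, 2.57-fold lower, and it is also known in trophoblast giant cells, whose markers moved the same way. Hand2, its relative in arch mesenchyme and right ventricle, had 19.5 FPKM in control and was 1.59-fold lower in cKO.

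Further members were lower by less. Mef2c, a MADS factor of heart muscle progenitors, had 14.9 FPKM in control and 9.87 FPKM in cKO, 1.51-fold lower. Fgf10, a growth factor of the outflow progenitors, had 5.19 and 3.59 FPKM, and Isl1, the LIM homeobox factor that defines the field, had 17.7 and 12.8 FPKM. Isl1 is also a gene of cranial ganglion neurons. Tbx1, the T-box factor of pharyngeal mesoderm and endoderm, was even, at 25.7 FPKM in control and 26.0 FPKM in cKO, as was Fgf8 at 9.52 and 9.64 FPKM. Sema3c, a guidance ligand of the outflow tract myocardium, had 12.9 and 9.08 FPKM, 1.42-fold lower.

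Genes of the posterior second heart field and septum transversum were on balance higher. Of 24 measured members, 8 were 1.5-fold or more higher and 1 was lower, with a median log2 ratio of 0.25. Over all genes 0.545% were higher and 1.37% were lower by that limit. This list and the anterior list were chosen with earlier results of these data known. Their counts and medians are therefore descriptions and not independent support. Aldh1a2, which makes retinoic acid from retinal, had 4.85 FPKM in control and 15.7 FPKM in cKO, 3.25-fold higher, the second highest ratio of all. Tbx5, the T-box factor of the inflow region, had 1.51 and 4.05 FPKM, 2.69-fold higher. Osr1, a zinc finger factor of the dorsal mesenchyme that divides the atria, had 4.30 and 8.42 FPKM, 1.96-fold higher, and Foxf1, a hedgehog-responsive forkhead factor, had 10.6 and 17.5 FPKM, 1.66-fold higher.

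Mesothelial and Wnt pathway members of this list were also higher. Wt1, a factor of mesothelium and proepicardium, had 0.902 FPKM in control and 1.79 FPKM in cKO, 1.99-fold higher. The Wnt ligands Wnt2 and Wnt4 were 1.73-fold and 1.94-fold higher, and the Wnt agonist Rspo1 was 1.79-fold higher. Wnt4 and Wt1 lay under 1 FPKM in control. Tbx20, a T-box factor that heart muscle also uses, was the 1 member that was 1.5-fold lower, at 6.87 and 4.13 FPKM. The abundant homeobox factors Meis1 and Meis2 were within 1.1-fold, at 48.7 and 64.7 FPKM in control and 50.8 and 61.9 FPKM in cKO.

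Among the signalling pathways, single members were past 1.5-fold and the medians were near even. In the retinoic acid list 1 of 18 measured genes was 1.5-fold higher (Aldh1a2) and 1 was lower (Rbp4). Cyp26b1, which degrades retinoic acid, was 1.41-fold lower at 22.7 and 16.1 FPKM, and the joined locus of the related Cyp26a1 and Cyp26c1 had 12.2 FPKM in control and was 2.03-fold lower in cKO. The retinol transporter gene Stra6 was 1.40-fold higher. In the Wnt list 4 of 25 were 1.5-fold higher, all ligands or agonists, and 1 was lower, the inhibitor Dkk1 at 5.44 and 3.28 FPKM. The Wnt target Axin2 was near even at 15.6 and 14.9 FPKM.

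Other pathway lists had 1 or 2 members past 1.5-fold. In the hedgehog list Osr1 and Foxf1 were higher, and the pathway receptor Ptch1 had 66.3 FPKM in both genotypes. The FGF list had 1 of 20 higher (Fgfbp3), the BMP list 1 of 25 lower (the ligand gene Gdf6) and the Notch list 1 of 17 lower (the target gene Heyl). Among axon guidance genes 2 of 32 were 1.5-fold or more lower, the ephrin receptor Epha3 at 3.32 and 1.72 FPKM and the ligand Sema3a, at 7.96 FPKM in cKO. The medians of these 5 lists lay between -0.17 and 0.04 on the log2 scale.

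A few matrix genes were lower, while most matrix genes were within 1.5-fold. Col3a1, a fibrillar collagen, had 75.9 FPKM in control and 37.1 FPKM in cKO, 2.05-fold lower. Lum, the collagen-binding proteoglycan lumican, had 16.3 and 6.82 FPKM, 2.39-fold lower, and Postn, periostin of cushions and connective tissue, had 5.78 and 2.36 FPKM, 2.45-fold lower. The fibrillar collagens Col1a1 and Col1a2, in contrast, were within 1.1-fold, at 21.8 and 31.8 FPKM in control. In all, 2 of 19 collagens and 3 of 38 other matrix genes were 1.5-fold or more lower and none was higher, with medians of -0.15 and -0.12. In 'HEART', Lum read 56.2 CPM in control 4 and between 0.0808 and 0.853 CPM in the other controls. That embryo also gave a 'SHF' sample, and how far it carried the pooled control value of Lum is not known.

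Arch mesenchyme genes, many of them expressed by neural crest cells that keep Chd7, were lower by small amounts. Of 28 measured members, 23 had a ratio below even, 4 were 1.5-fold or more lower and none was higher. Their median log2 ratio was -0.18. Over all genes 45.8% were above even and 1.37% were 1.5-fold or more lower. Pharyngeal endoderm genes were lower to a like degree, with 16 of 19 below even and a median of -0.17. Barx1, a homeobox factor of arch mesenchyme and stomach, had 3.31 FPKM in control and 1.22 FPKM in cKO, 2.71-fold lower. All 5 measured Dlx genes, which pattern the arches along the proximal to distal axis, were lower, with log2 ratios from -0.70 to -0.43. Prrx1 had 34.5 and 22.2 FPKM, 1.55-fold lower, and its relative Prrx2 had 70.4 and 67.0 FPKM. The crest marker Sox10 was near even at 11.9 and 11.5 FPKM.

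A few neuronal genes of the cranial ganglia were lower and a few neural tube genes were higher. Neurod1, a factor of newborn sensory neurons, had 5.43 FPKM in control and 2.77 FPKM in cKO, 1.96-fold lower, and Nefm, a neurofilament, had 9.73 and 5.77 FPKM. In that list 2 of 23 were 1.5-fold or more lower and none higher, with a median log2 ratio of -0.29. Of 21 neural tube genes 4 were 1.5-fold or more higher and none lower, with a median of 0.21. These 4, Msx3, Olig3, Pax3 and Zic1, are genes of the dorsal neural tube, and Pax3 is also one of somites. Lmx1a, a dorsal gene of the same list, went the other way, at 2.79 FPKM in control and 2.15 FPKM in cKO. Across the list 15 ratios were above even and 6 below, where 45.8% of all genes were above even. Msx3 had 1.33 FPKM in control and 3.23 FPKM in cKO, 2.44-fold higher, and Olig3 had 1.29 and 2.39 FPKM. The pan-neural gene Sox1 had 4.72 and 5.67 FPKM.

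Among Hox genes of the anterior paralogue groups, those past 1.5-fold belonged to group 4. Hoxa4 had 1.23 FPKM in control and 2.54 FPKM in cKO, 2.06-fold higher, Hoxc4 was 1.62-fold higher, and the locus that joins Hoxd4 with a microRNA gene was 2.29-fold higher. Hoxb1 and Hoxb2 were near even at 9.26 and 24.3 FPKM in control and 8.17 and 23.1 FPKM in cKO. Group 4 Hox genes have a more caudal boundary of expression than groups 1 and 2. Of 8 measured genes 2 were 1.5-fold higher and none lower.

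**Figure D3:**
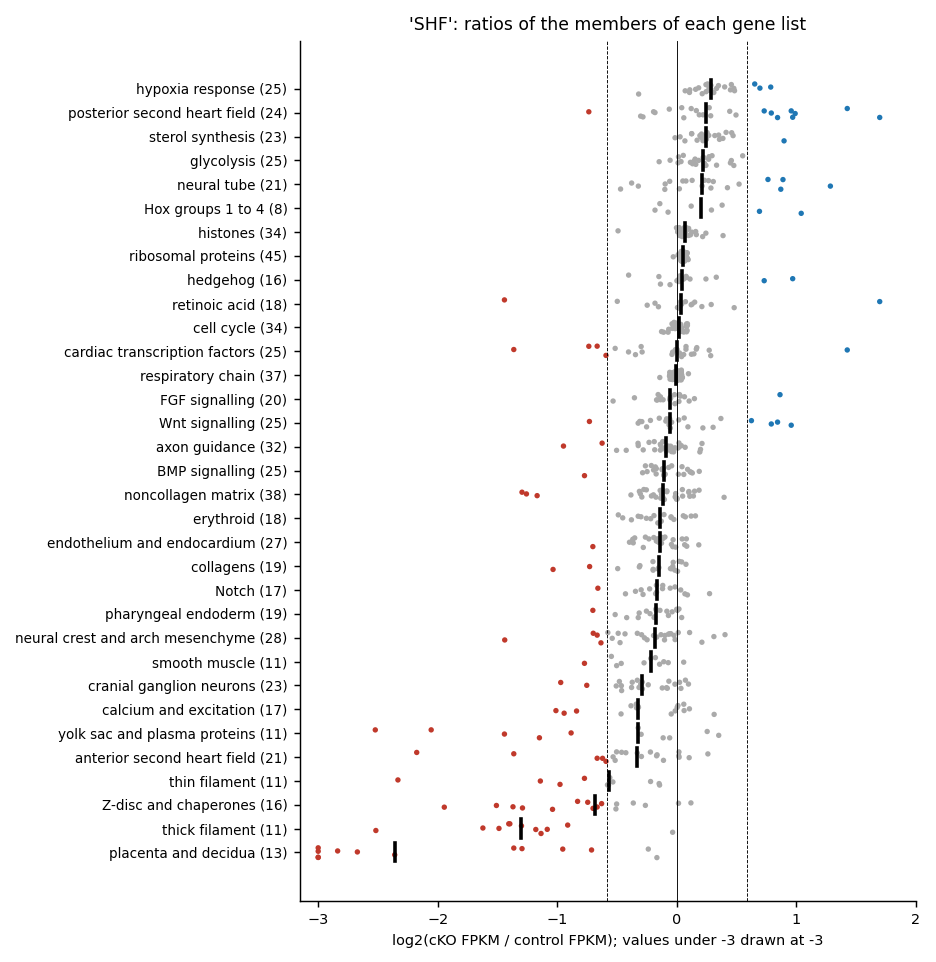
Log2 ratio of cKO to control FPKM in 'SHF' for the measured members of 33 gene lists (number in brackets), 1 point per gene, with the list median as a black bar, dashed lines at 1.5-fold, red for 1.5-fold or more lower and blue for 1.5-fold or more higher. The medians run from -2.36 (placenta and decidua) to 0.29 (hypoxia response), and points beyond -3 are drawn at -3.

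Hypoxia response and glycolysis genes were higher by small amounts across the lists. Hypoxia-inducible factors bind a short DNA element and turn on glucose uptake, glycolysis and autophagy genes when oxygen is low. Of 25 measured hypoxia response genes 24 had a ratio above even, against 45.8% of all genes, and 3 were 1.5-fold or more higher, with a median log2 ratio of 0.29. Ddit4, an inhibitor of mTOR, had 13.1 FPKM in control and 22.6 FPKM in cKO, 1.72-fold higher. Bnip3, a mitophagy receptor, had 18.9 and 30.7 FPKM, 1.62-fold higher, and Ankrd37 was 1.57-fold higher. Anxa2 was the exception, at 40.8 and 32.7 FPKM. The hormone gene Epo, chosen after its values were seen, had 1.32 and 2.36 FPKM.

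The enzymes of glycolysis were higher at high levels of expression. Of 25 measured genes 23 had a ratio above even, against 45.8% of all genes, and none passed 1.5-fold, with a median of 0.22. Slc16a3, the lactate exporter, had 52.6 FPKM in control and 77.1 FPKM in cKO, 1.47-fold higher. Pdk1, which turns pyruvate away from mitochondria, had 28.7 and 39.5 FPKM, and Hk2, the first enzyme of the pathway, had 36.8 and 50.3 FPKM, each 1.37-fold higher. Ldha, lactate dehydrogenase, had 1131 and 1340.1 FPKM. The hypoxia and glycolysis lists share genes, so they are not separate sets.

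The hypoxia promoters are shown because these genes share a known element. RefSeq promoters were available for 21 of the 25 measured hypoxia genes, and the core element ACGTG was found on either strand in the 250 upstream bases of 17 of them (81.0%), and of 18.5% of all 27025 genes. The list was drawn from genes known as hypoxia targets, so a high share is a property of the list and not of these samples. The sequences run 5′ to 3′ with the element in capitals, read as CACGT where it lies on the other strand, and an overlap of both readings appears as CACGTG. Shown are Bnip3 (chr7:138909507-138909756), Ddit4 (chr10:59951771-59952020) and Hk2 (chr6:82774455-82774704), all on the minus strand.
Bnip3: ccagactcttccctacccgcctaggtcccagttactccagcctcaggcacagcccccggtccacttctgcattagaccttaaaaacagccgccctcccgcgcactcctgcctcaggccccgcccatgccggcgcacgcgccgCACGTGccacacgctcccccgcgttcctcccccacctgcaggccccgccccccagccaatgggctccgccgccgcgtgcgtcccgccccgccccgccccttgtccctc
Ddit4: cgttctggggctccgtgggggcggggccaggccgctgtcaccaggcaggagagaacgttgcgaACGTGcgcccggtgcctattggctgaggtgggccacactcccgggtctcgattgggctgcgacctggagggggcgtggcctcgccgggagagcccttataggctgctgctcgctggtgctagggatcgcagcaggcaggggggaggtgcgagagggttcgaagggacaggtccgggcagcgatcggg
Hk2: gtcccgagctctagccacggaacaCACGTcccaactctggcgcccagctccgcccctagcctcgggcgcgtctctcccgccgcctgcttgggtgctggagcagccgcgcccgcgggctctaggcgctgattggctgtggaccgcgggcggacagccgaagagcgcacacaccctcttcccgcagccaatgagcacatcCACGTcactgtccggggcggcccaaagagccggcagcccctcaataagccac
Hk2 held 2 separate elements, 52 and 226 bases before the start.

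Sterol synthesis genes were higher in the same narrow way. This pathway makes cholesterol from acetyl-CoA under the control of SREBP2. Of 23 measured genes 22 had a ratio above even, against 45.8% of all genes, with a median log2 ratio of 0.24. The synthesis enzyme genes Lss and Hmgcs1 had 7.82 and 83.0 FPKM in control and were 1.39-fold and 1.28-fold higher in cKO. Scd1, a desaturase of fatty acids that is not in the list, had 19.9 and 31.7 FPKM.

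Housekeeping lists stayed near even. The 45 ribosomal protein genes lay between -0.03 and 0.10 on the log2 scale with a median of 0.05. Small ratios in 1 direction were not limited to the lists above: 44 ribosomal protein genes and 32 of 34 histone genes were above even. Below even were 22 of 27 endothelial, 16 of 19 pharyngeal endoderm and 13 of 14 surface ectoderm genes. The 34 cell cycle genes had a median of 0.02, the 37 respiratory chain genes -0.01 and the 34 histone genes 0.07, and none of their members passed 1.5-fold. Endothelial genes had a median of -0.14 with 1 of 27 lower (Sox17, a factor of endoderm and arterial endothelium), and pharyngeal endoderm genes -0.17 with the same 1 of 19 lower. In the smooth muscle list 1 of 11 was 1.5-fold lower, Acta2, with a median of -0.22. Among cardiac transcription factors 4 of 25 were 1.5-fold lower and 1 higher (Tbx5), with a median of 0.00.

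Small RNA symbols (small nucleolar, Cajal body and small nuclear RNAs and microRNA genes) were overrepresented at both ends. Of 40 such symbols 12 were past 2-fold, 30%, and the SD of their log2 ratios was 1.32, while 0.575% of the other symbols were past 2-fold. Snord104 had 305 FPKM in control and 11.9 FPKM in cKO, and Snora23, the highest ratio of the 11005, had 0.907 and 2.99 FPKM. Snord49b had 0 FPKM in control and 462 FPKM in cKO, so it had no ratio and was not ranked. Snord49a went the other way, at 807 and 418 FPKM. Snora16a and Snora44, 16.1-fold and 2.98-fold lower, are listed at the same interval of chromosome 4, from 132308628 to 132329538. These RNAs are short against the sequenced fragments and lie within host genes, so their FPKM is uncertain. Shared intervals are common: 18.7% of the 11005 symbols had an interval that another symbol also carried, Dlx1, Dlx2 and Pdk1 among them.

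Sex-linked genes differed between the pools. The 5 measured Y-linked genes had a median log2 ratio of -1.07, for example Ddx3y at 3.48 FPKM in control and 1.65 FPKM in cKO, and Xist had 10.1 and 20.9 FPKM. In 'HEART' Xist was the 1 tested gene of the sex-linked list, with a log2 difference of 1.88, and was not called. Its adjusted p ran from 8.9e-05 to 0.65 over the edgeR and DESeq2 fits. In the 'SHF' pools the Y-linked genes and Xist differed along with genotype, and the sex of the embryos is not given. Sex and genotype therefore cannot be told apart in the pooled values, and the part of sex in the other ratios was not tested. The 'HEART' fits did not include sex, so its part in those calls was not tested either. Leaving out small RNA, placental, prolactin and sex-linked symbols, 40 genes were 2-fold or more lower and 7 were higher. This count was added after the values were seen.

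The same genes were read in 'HEART', where the 4 samples of each genotype allow a test. Most of the embryos are shared between the dissections, and the difference between the dissections was not tested. Col3a1 read 137 CPM, 201 CPM, 179 CPM and 224 CPM in controls and 72.8 CPM, 96.4 CPM, 81.7 CPM and 83.7 CPM in cKO, and fell by 1.14 on the log2 scale (SE 0.13, adjusted p = 5.1e-04, edgeR). Asb4, an imprinted gene of the vascular lineage that was 1.84-fold lower in 'SHF', fell by 0.95 (SE 0.10, adjusted p = 2.1e-04), and Hand2 fell by 0.54 (SE 0.08, adjusted p = 0.0017). None of these 3 genes overlapped between the genotypes. Col3a1 was the 1 of 22 tested collagens that fell, and 5 rose. Of the other matrix list 2 of 40 tested genes fell and 10 rose. Among all tested genes 2.92% fell and 3.51% rose.

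Most sarcomere genes were not called in 'HEART', though the share that fell in the Z-disc list was above that of all tested genes. Of the calcium and excitation list 8 of 26 tested genes fell and 1 rose. Of the thick filament list 2 of 14 tested genes fell and 1 rose, of the thin filament list 1 of 16 fell and 2 rose, and of the Z-disc list 7 of 23 fell and 2 rose, where 2.92% of all tested genes fell and 3.51% rose. With a block for the first part of the embryo name, a fit added after the values were seen, 1 Z-disc gene fell and 1 rose, and from 2 (without control 1) to 6 Z-disc genes fell when a sample was left out. Among the genes named above for 'SHF', Csrp3 fell by 0.28 (SE 0.07, adjusted p = 0.048, edgeR), from 453 to 503 CPM in controls and from 366 to 451 CPM in cKO, and Actn2 fell by 0.27 (SE 0.08, adjusted p = 0.093). Neither passed with that block, with adjusted p of 0.56 and 0.14, and of the 8 fits that left out a sample Actn2 passed in 1, without control 4, and Csrp3 in 2, without control 4 or cKO 4. Actc1 ranged from 15363 to 15941 CPM in controls and from 15280.2 to 16059 CPM in cKO (log2 difference -0.01, SE 0.05, adjusted p = 0.97). Myh7 ranged from 6171 to 8436 CPM in controls and from 6054 to 7723 CPM in cKO (log2 difference -0.05, SE 0.10, adjusted p = 0.86). Myl3 and Tnnc1 had adjusted p of 0.57 and 0.24, and their genotypes overlapped. Without cKO 4, Tnnc1 passed, with an adjusted p of 0.033. Acta2, in contrast, rose by 0.25 (SE 0.07, adjusted p = 0.047, edgeR), from 4857 to 5584 CPM in controls and from 5793 to 6470.4 CPM in cKO, while it was 1.71-fold lower in 'SHF'. Without control 2, control 3, cKO 1 or cKO 2, Acta2 no longer passed, with adjusted p up to 0.15, nor with the embryo name block (adjusted p = 0.35).

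**Figure D4:**
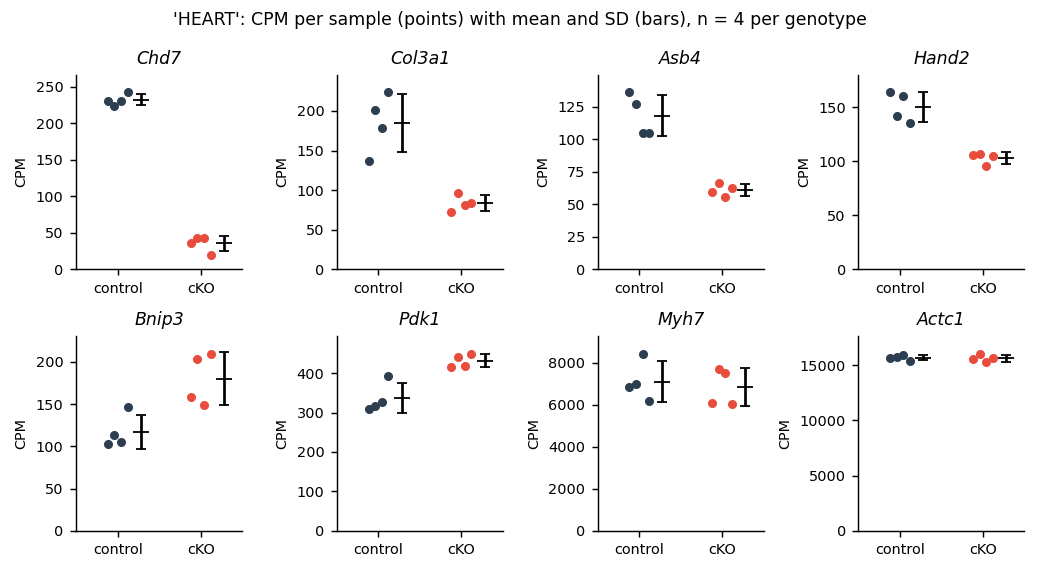
TMM-scaled CPM (vertical axes from 0) of 8 genes in the 'HEART' samples, 1 point per embryo, 4 control (dark blue) and 4 cKO (red), with the mean and SD as a black bar. Chd7, Col3a1, Asb4 and Hand2 are lower in every cKO sample, Bnip3 and Pdk1 are higher in every cKO sample, and Myh7 and Actc1 overlap between the genotypes.

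Of 26 tested hypoxia response genes 13 rose in 'HEART' and none fell, where 3.51% of all tested genes rose. Leaving out control 1 gave 5, control 2 gave 8 and cKO 2 gave 6, and the embryo name block gave 1, and no member fell in any of these fits. Bnip3 read 103 CPM, 114 CPM, 105 CPM and 146 CPM in controls and 158 CPM, 204 CPM, 149 CPM and 210 CPM in cKO, and rose by 0.62 (SE 0.13, adjusted p = 0.018, edgeR). Pdk1 rose by 0.36 (SE 0.08, adjusted p = 0.020), with no overlap between the genotypes. With the embryo name block Bnip3 and Pdk1 no longer passed, with adjusted p of 0.11 and 0.22. Ddit4 rose by 0.71 (SE 0.20, adjusted p = 0.076), but its genotypes overlapped, and it no longer passed without control 1, 2 or 4 or without cKO 2 or 4, with adjusted p up to 0.21, nor with the embryo name block (adjusted p = 0.54).

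Of 20 tested anterior second heart field genes 6 fell in 'HEART', Hand2 among them, and none rose, with a median log2 difference of -0.43. Posterior second heart field genes were not called higher in 'HEART': of 26 tested, none rose and 2 fell, where 2.92% of all tested genes fell. Without control 3, 1 rose, Osr1, with an adjusted p of 0.033. Tbx5 ranged from 152 to 161 CPM in controls and from 131 to 159 CPM in cKO (log2 difference -0.07, SE 0.07, adjusted p = 0.69). Aldh1a2 ranged from 3.31 to 7.24 CPM in controls and from 5.03 to 9.09 CPM in cKO (log2 difference 0.51, SE 0.26, adjusted p = 0.36). Star, of the steroid genes, read 5.04 CPM, 3.50 CPM, 0.647 CPM and 7.43 CPM in controls and 1.96 CPM, 1.39 CPM, 0.351 CPM and 0.615 CPM in cKO (log2 difference -1.89, SE 0.59, adjusted p = 0.11). Its genotypes overlapped. Star passed without control 3 (adjusted p = 0.015), with no filter on low counts (0.066), with DESeq2 (0.030), with the replicate block (0.021) and with the embryo name block (0.053).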

How the data were processed

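For 'SHF', the authors deposited FPKM values, 1 pooled value per genotype, from rRNA-depleted total RNA with ERCC spike-in added. The study's methods name STAR 2.5.0b, mm10, HTSeq and DESeq2, whereas no source used here names the program that wrote the FPKM table. For 'HEART', the authors deposited counts per gene from poly(A) RNA, made with fastp 0.20.1, STAR 2.7.2b and featureCounts 1.6.4. The 'SHF' table also holds the authors' own fold changes and p-values, which were not used. Ratios of 'SHF' were formed without a pseudocount or scaling, and no test was possible. Starts of loci are counted from 1.

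'HEART' counts were tested with edgeR 4.0.16 in R 4.3.3 (quasi-likelihood test, TMM, filterByExpr, genotype alone, Benjamini-Hochberg adjustment over 12694 genes, threshold 0.1), after a check on simulated counts. Each sample is its own embryo, so p-values measure the spread between these embryos. Controls 3 and 4 share the first part of their embryo name with cKO 3 and 4, as do cKO 1 and 2 with each other, and no source used here says whether it marks a litter. A fit with this part of the name as a block was added after the data were seen. Counts can be uncertain where genes overlap, because no source used here states the strand setting.

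The members and gene lists were chosen with earlier results of these data known. Named genes were Chd7, the ends of the ranking over all genes and over those of 10 FPKM or more, the members of each list with the largest ratio or level, and markers. Other list members were named for their role after their values were seen. Alternatives were a mean of 5 FPKM, no filter, a pseudocount of 1 FPKM, summed loci, centred ratios and any locus status for 'SHF', and RLE scaling, DESeq2 1.42.0, no filter, the replicate block, a threshold of 0.05 and leaving out each sample for 'HEART'. The values of 1 member of the sterol synthesis list are not reported here.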

Additional observations from a re-analysis of the deposited data

Results flagged for a closer look

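Of 58 groups of 4 'HEART' samples screened, 3 held a sample far from the others by Dixon's criterion, which flags about 1 group in 20 by chance, so this count is close to what chance gives. Lum read 56.2 CPM in control 4, and between 0.0808 and 0.853 CPM in the other controls. Acta2 read 5793 CPM in cKO 3, and between 6431 and 6470.4 CPM in the other cKO samples. Hand2 read 95.1 CPM in cKO 3, and between 105 and 106 CPM in the other cKO samples. The causes were not tested.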

How the results depend on the processing

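In 'SHF' the counts of genes past a fold moved with the treatment of low values. The 62 genes that were 2-fold or more lower became 14 at a mean of 5 FPKM, 125 with no filter, 31 with a pseudocount of 1 FPKM and 40 without small RNA, placental, prolactin and sex-linked symbols, a setting chosen after seeing the data. The 13 that were higher became 5, 41, 6 and 7. At 1.5-fold, the 151 lower became 37, 308 and 92 and the 60 higher became 15, 152 and 30 in the first 3 settings. At a mean of 5 FPKM the medians became -0.998 for thick filament, -0.0046 for calcium, -0.24 for placenta, 0.15 for yolk sac and -0.11 for Hox genes. With the pseudocount, thick filament became -0.90 and placenta -1.15. Placenta became -1.56 with summed loci, and yolk sac -1.15 with no filter. Other medians moved by less than the SD of all ratios, 0.23. Depth per 'SHF' sample is unknown, so no interval could be given.

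The 817 'HEART' calls became 806 with RLE scaling, 861 with no filter, 982 with DESeq2 and 549 at 0.05. Leaving out 1 sample gave from 500 calls (without cKO 2) to 1421 (without cKO 4), with 509 without control 1 and 510 without cKO 1. The replicate block gave 917 calls, of which 747 were among the 817. Samples with the same number had correlations of 0.098, 0.062, 0.23 and -0.028 in their deviations from the group means, so the numbers were not taken as pairs. A block for the first part of the embryo name, chosen after seeing the data, gave 239 calls, of which 210 were among the 817. In that fit only 2 name groups held both genotypes. No value changed direction past its threshold.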
